A study of Mus musculus with 18 samples.

Results

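The transcription factors that set up and hold lung epithelial identity were examined in 18 mouse cultures, using 10 genes (*Nkx2-1*, *Foxa1*, *Foxa2*, *Sox2*, *Sox9*, *Cebpa*, *Klf5*, *Elf3*, *Elf5* and *Id2*) chosen by name from the 46603 genes of each deposited table. They were named for their known roles, with earlier results of these data known, and the choice used no threshold on a measured value. Each gene was read as an expected count (the number of reads that the quantification tool assigned to it) and as TPM (a share of all transcripts, scaled to a fixed sum and corrected for gene length). Levels of different genes are compared in TPM, and one gene is compared between cultures in CPM (counts scaled to the library total) by edgeR.

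All cultures came from mice with a mutant human EGFR transgene at the *Col1a1* locus, driven by the ubiquitous CAG promoter and held off by a lox-stop-lox cassette. Sorted cells were grown in Matrigel on transwells together with lung mesenchymal support cells, so each RNA sample can hold RNA of the support cells too. The 10 organoid cultures had not been transplanted. They were NGFR- (club) and NGFR+ (basal) cells of the trachea, Sca1- alveolar type 2 (AT2) cells and Sca1+ bronchioalveolar stem cells (BASCs) labelled mixed, each with 1 culture given Ad-GFP, the control virus that leaves the cassette in place, and 1 given Ad-Cre, which removes it. A further Ad-Cre culture of alveolar BASC organoids and 1 of bronchiolar BASC organoids had been picked by morphology. The 8 tumoroid cultures were tumors taken out of mice and grown again in 3D: 3 from transplanted AT2 cells, 3 from mixed BASCs, 1 from bronchiolar BASCs and 1 from an autochthonous tumor that arose in place. All 8 had been given Cre. The transplanted cells came from Ad-Cre organoids, and the autochthonous tumor followed Ad-Cre given through the nose. Cells for transplantation were given through the trachea of nude mice, which lack mature T cells. Airway organoids below are the 4 tracheal cultures and the bronchiolar BASC culture (n = 5), and alveolar organoids are the 2 AT2 cultures and the alveolar BASC culture (n = 3). No organoid condition was repeated, so different populations, and the Ad-GFP and Ad-Cre cultures divided from 1 sort, stand in for replicates. The p-values measure the spread between these cultures and count such divided cultures as separate, except where the population is a block. Mice with autochthonous tumors were infected as adults, and other ages were not given in the sources used here.

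Lung epithelium is laid out along an axis from the conducting airways to the alveoli. NKX2-1 is the homeodomain factor that defines the whole lung lineage, and FOXA1 and FOXA2 are pioneer factors that open chromatin for it. SOX2 marks the proximal, airway side of the axis, while SOX9 and ID2, an inhibitor of basic helix-loop-helix factors, mark the distal tips of the embryonic lung. C/EBPα serves alveolar type 2 maturation, KLF5 is a zinc finger factor of airway and alveolar differentiation, and ELF3 and ELF5 are epithelial ETS factors, ELF5 being known from the distal tip.

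RefSeq promoter windows (GRCm38.p6, 250 bases before to 50 after a start site) were found for 8 of the 10 genes, in 11 windows. *Sox9* and *Klf5* were not matched. The windows were searched on both strands for the letters that the factors themselves bind. These were FOXA TGTTTAC, NKX2-1 CAAGTG, SOX ACAATG, C/EBP TTGCNNAA, KLF CCACACCC, the ETS core AGGAAG and the E-box CAGCTG. The stretches below are windows of 5 of these genes, each holding a match. They are ended at the first annotated exon base or at the start site, 5′ to 3′, with matches in capitals.
Foxa1 (chr12:57546122-57546361, minus strand): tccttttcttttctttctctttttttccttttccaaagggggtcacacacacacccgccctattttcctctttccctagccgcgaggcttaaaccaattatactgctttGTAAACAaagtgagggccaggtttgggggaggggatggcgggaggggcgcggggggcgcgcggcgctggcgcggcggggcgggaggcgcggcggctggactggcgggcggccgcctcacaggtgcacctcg
Elf3 (chr1:135258569-135258722, minus strand): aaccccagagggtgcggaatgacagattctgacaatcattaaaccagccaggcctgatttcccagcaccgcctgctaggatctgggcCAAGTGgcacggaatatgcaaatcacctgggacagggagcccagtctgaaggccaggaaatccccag
Elf5, second start site (chr2:103423818-103424061, plus strand): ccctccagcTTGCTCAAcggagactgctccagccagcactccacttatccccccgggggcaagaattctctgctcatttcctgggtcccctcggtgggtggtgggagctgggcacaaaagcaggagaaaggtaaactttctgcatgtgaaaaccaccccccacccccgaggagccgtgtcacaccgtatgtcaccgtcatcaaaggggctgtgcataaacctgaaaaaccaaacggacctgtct
Sox2 (chr3:34649745-34649994, plus strand): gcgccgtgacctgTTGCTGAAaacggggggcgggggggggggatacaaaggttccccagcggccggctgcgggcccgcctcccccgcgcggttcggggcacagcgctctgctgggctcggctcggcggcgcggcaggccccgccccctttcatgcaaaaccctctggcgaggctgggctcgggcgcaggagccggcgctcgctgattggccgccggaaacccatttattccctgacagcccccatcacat
Nkx2-1 (chr12:56536909-56537158, minus strand): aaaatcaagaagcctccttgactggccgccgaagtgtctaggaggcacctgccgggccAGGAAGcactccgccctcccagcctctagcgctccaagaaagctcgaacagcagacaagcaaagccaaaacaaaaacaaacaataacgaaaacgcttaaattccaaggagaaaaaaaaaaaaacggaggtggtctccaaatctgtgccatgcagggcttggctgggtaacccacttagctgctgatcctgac
The capitals mark a FOXA match in *Foxa1* from -141 to -135 relative to the start site, on the reverse strand, and an NKX2-1 match in *Elf3* from -163 to -158. They also mark a C/EBP match in *Elf5* from -241 to -234, another in *Sox2* from -237 to -230, and an ETS match in *Nkx2-1* from -192 to -187. Of all 32851 windows of this length, 3.65% held the FOXA letters, 13.6% NKX2-1, 12.6% SOX, 10.8% C/EBP, 3.56% KLF, 35.4% ETS and 16.3% the E-box. The other *Elf5* window also held a C/EBP match, from -235 to -228, beside a SOX match and an E-box. Of the windows not shown, that of *Id2* held an E-box from -196 to -191, and a *Foxa2* window held an ETS match from -114 to -109. Neither the other *Foxa2* windows nor the *Cebpa* window held any of the letters. No window of these genes held the KLF letters. A match describes the letters only and says nothing of binding.

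The organoid libraries held 27772660 to 97191624 expected counts, and the tumoroid libraries 15327265 to 23355938. The organoids were sequenced with TruSeq libraries on a HiSeq and the tumoroids on a DNBSEQ, so platform and the time in the animal cannot be told apart. The third AT2 tumoroid stood apart from the others. It had the lowest total, the highest summed TPM of 7 fibroblast markers (4395, against 179 to 1968 in the other 5 tumoroids of its class) and the lowest sum of 6 epithelial markers (991, against 3530 to 5157). The fits of the tumoroids were therefore repeated without it. For the 3 AT2 tumoroids the sort label reads NGFR negative, which does not match their stated AT2 origin, and the origin was used. Tumoroid titles share numbers (655 in 2 AT2 tumoroids, 648 in 2 mixed BASC tumoroids and the bronchiolar one), and whether these came from 1 mouse is not stated. Markers separated airway from alveolar cultures, but not the tracheal sorts as labelled. *Sftpc*, the AT2 surfactant gene, was at 60430 to 61210 TPM in the alveolar organoids, 3.17 to 348 in the airway organoids, 21220 to 123100 in the AT2 and mixed BASC tumoroids and 3405 in the bronchiolar one. *Trp63*, the basal cell factor, was at 53.0 to 78.8 TPM in the airway and 1.42 to 4.46 in the alveolar organoids. The club secretoglobin *Scgb1a1* was at 7.03 to 18.4 TPM in the tracheal organoids, below the alveolar ones (50.9 to 1221), and at 6392 in the bronchiolar BASC organoid, although 7 club markers together summed to 20550 to 26180 TPM in the airway organoids. The 8 basal markers summed to 4875 and 4520 TPM in the NGFR- cultures, labelled club, and to less, 4214 and 3730 TPM, in the NGFR+ cultures, labelled basal. Leukocyte *Ptprc* and endothelial *Pecam1* stayed at or below 0.91 and 4.55 TPM in all 18 cultures.

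In the organoids, all 10 factors differed between airway and alveolar cultures. *Sox2*, *Foxa1*, *Elf3*, *Sox9* and *Klf5* were higher in airway cultures, and *Elf5*, *Foxa2*, *Cebpa*, *Id2* and *Nkx2-1* were higher in alveolar cultures. The fit held all 10 organoids, the mixed BASC cultures included, which share in its estimate of the spread. All 10 factors passed edgeR's quasi-likelihood test at an adjusted p below 0.05, and in all 10 the CPM ranges of the groups did not overlap. Over all genes tested 53.1% had ranges that did not overlap. Against the calls stands a background in which 56.4% of the 19349 genes tested were called (5656 higher and 5264 lower in airway cultures), so a call alone does not set these genes apart. The median log2 fold change of the 10 was 0.00, against 0.07 over all genes tested.

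**Figure D1:**
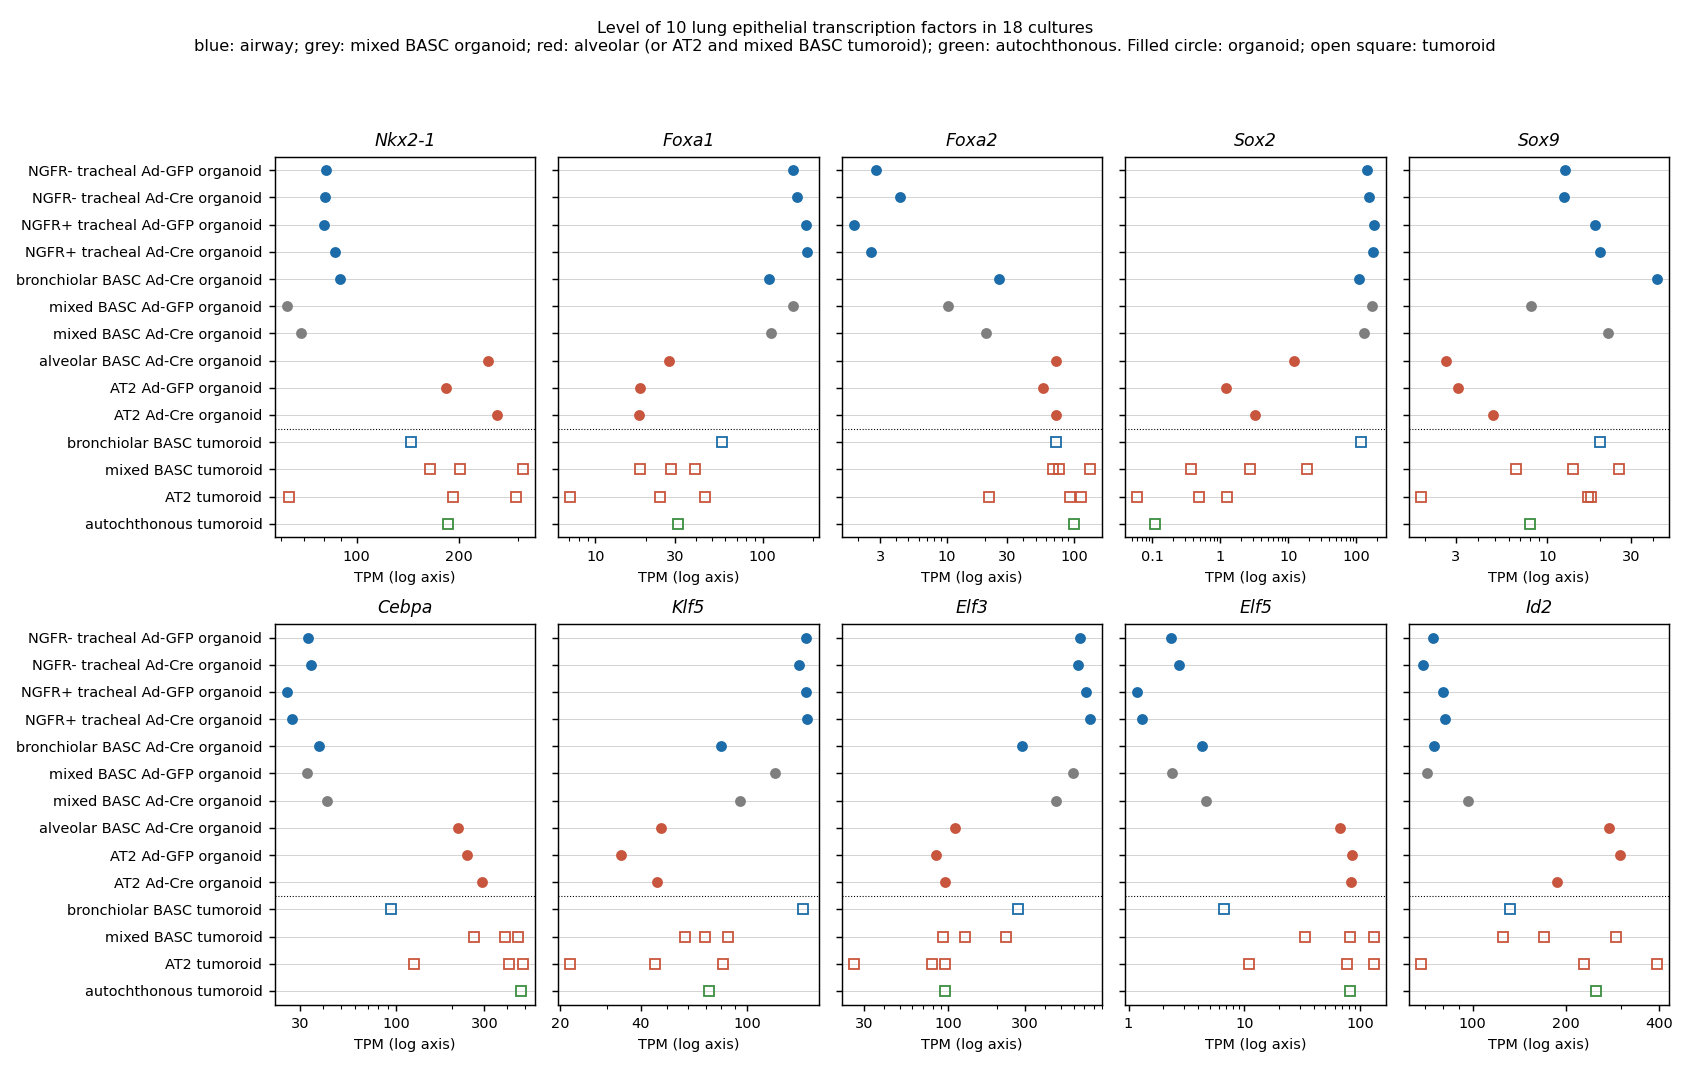
Level of each of the 10 factors in TPM (log axis) in 18 cultures, 1 row per group and 1 point per culture; filled circles are organoids, open squares tumoroids, blue airway, grey mixed BASC, red alveolar (for tumoroids, AT2 and mixed BASC) and green autochthonous. In each panel the airway and alveolar organoids occupy separate ranges, the mixed BASC organoids sit with or near the airway ones, and 1 AT2 tumoroid lies at the low end for most genes (63.1 TPM of *Nkx2-1*).

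*Sox2* showed the plainest proximal pattern. It stood at 142, 153, 179.9 and 172 TPM in the 4 tracheal organoids (NGFR- Ad-GFP, NGFR- Ad-Cre, NGFR+ Ad-GFP, NGFR+ Ad-Cre) and at 109.6 TPM in the bronchiolar BASC organoid. In the alveolar organoids it was 1.20 TPM with AT2 Ad-GFP, 3.24 with AT2 Ad-Cre and 12.1 with alveolar BASC. The groups did not overlap, and the alveolar BASC culture was the highest of its group. The log2 fold change (airway minus alveolar, on CPM) was 4.62 ± 0.72 (SE; adjusted p = 0.000622). *Sox2* lies inside the non-coding gene *Sox2ot* on the same strand, which had a median of 0.17 TPM.

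*Sox9*, listed above as a factor of distal tips in the embryo, was higher in the airway organoids here. Its levels were 12.7, 12.5, 18.9 and 19.9 TPM in the tracheal organoids, in the order given for *Sox2*, and 42.6 TPM in the bronchiolar BASC organoid. The alveolar organoids had 3.07 (AT2 Ad-GFP), 4.91 (AT2 Ad-Cre) and 2.63 TPM (alveolar BASC). The bronchiolar BASC culture was the highest and the 3 alveolar cultures the lowest, with a log2 fold change of 2.44 ± 0.51 (adjusted p = 0.00308). Both SOX factors thus lay on the airway side.

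The FOXA factors went in opposite directions. *Foxa1* was at 152, 159.9, 183 and 184 TPM in the tracheal cultures and 109 in the bronchiolar BASC culture, against 18.4, 18.3 and 27.5 in AT2 Ad-GFP, AT2 Ad-Cre and alveolar BASC organoids (log2 fold change 2.73 ± 0.26, adjusted p = 3.44e-05). *Foxa2* was at 2.77, 4.33, 1.86 and 2.55 TPM in the tracheal cultures and 26.0 in the bronchiolar BASC culture, against 57.2, 71.6 and 72.5 in the alveolar ones (log2 fold change -3.33 ± 0.82, adjusted p = 0.00747). The bronchiolar BASC culture thus lay between the tracheal and the alveolar cultures for *Foxa2*, and it widened the spread of the airway group. With the tracheal cultures alone as airway the fold change was -4.73 ± 0.32, and with the Ad-Cre cultures alone (3 against 2) it was -2.90 ± 0.99 and no longer called (adjusted p = 0.0842).

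The ETS pair behaved likewise. *Elf3* was the most abundant of the 10 factors in every airway organoid, at 655, 636, 712 and 761 TPM in the tracheal cultures and 288 in the bronchiolar BASC culture. In the alveolar organoids it was 83.6 (AT2 Ad-GFP), 95.3 (AT2 Ad-Cre) and 109.9 TPM (alveolar BASC), a log2 fold change of 2.53 ± 0.33 (adjusted p = 0.000204). *Elf5* was nearly absent from the trachea (2.32, 2.75, 1.19 and 1.31 TPM, from 56 to 71 reads) and low in the bronchiolar BASC culture (4.29 TPM), against 85.6, 83.9 and 67.1 TPM in the alveolar cultures. This was the widest difference of the 10 (log2 fold change -5.26 ± 0.42, adjusted p = 1.45e-05). The *Elf3* locus overlaps the antisense gene *Gm26642* (median 1.17 TPM), and since the strand setting of the counting was not given in the sources used here, reads of the pair cannot be told apart.

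*Cebpa* had 33.1, 34.3, 25.5 and 27.2 TPM in the tracheal cultures and 38.2 in the bronchiolar BASC culture, against 242, 291 and 217 in the alveolar ones. The log2 fold change was -3.13 ± 0.15, with the smallest adjusted p of the 10 (1.44e-06). *Klf5* was at 166, 156, 166 and 167 TPM in the trachea and 79.8 in the bronchiolar BASC culture, against 33.7, 46.0 and 47.8 in the alveolar cultures (log2 fold change 1.64 ± 0.27, adjusted p = 0.000815). *Cebpa* was low in every airway culture and *Klf5* high, with the bronchiolar BASC culture the lowest of the 5 for *Klf5*.

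*Nkx2-1* was present in every culture and was more abundant in the alveolar ones. It stood at 80.2 to 89.6 TPM in the 5 airway organoids and at 184 (AT2 Ad-GFP), 260.3 (AT2 Ad-Cre) and 245 TPM (alveolar BASC) in the alveolar organoids (log2 fold change -1.63 ± 0.11, adjusted p = 6.87e-06). *Id2* ran from 69.2 to 81.2 TPM in the airway organoids and was 298, 187 and 276 TPM in AT2 Ad-GFP, AT2 Ad-Cre and alveolar BASC cultures (log2 fold change -1.90 ± 0.17, adjusted p = 2.35e-05). Both were lower in airway cultures by less than the other 3 alveolar factors. *Nkx2-1* overlaps the antisense gene *Gm26973*, which had a median of 4.48 TPM.

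By median TPM the order in the airway organoids was *Elf3* (655), *Klf5* (166), *Foxa1* (159.9), *Sox2* (153), *Nkx2-1* (81.3), *Id2* (74.8), *Cebpa* (33.1), *Sox9* (18.9), *Foxa2* (2.77) and *Elf5* (2.32). In the alveolar organoids it was *Id2* (276), *Nkx2-1* (245), *Cebpa* (242), *Elf3* (95.3), *Elf5* (83.9), *Foxa2* (71.6), *Klf5* (46.0), *Foxa1* (18.4), *Sox2* (3.24) and *Sox9* (3.07). Neighbours such as *Klf5*, *Foxa1* and *Sox2* in the airway cultures, or *Id2*, *Nkx2-1* and *Cebpa* in the alveolar ones, had overlapping ranges.

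Epithelial and fibroblast markers moved with the same contrast. All 6 epithelial markers (*Epcam*, *Cdh1*, *Krt8*, *Krt18*, *Krt19*, *Cldn7*) were called higher in airway organoids, where they summed to 5396 to 8523 TPM against 1642 to 2193 in alveolar organoids. Of 7 fibroblast markers 6 were called lower, with sums of 838 to 1632 against 1940 to 3698 TPM, and no marker of either list was at 0 in any culture. In such bulk samples, fewer cells of a type and less RNA per cell cannot be told apart. Each factor was therefore also expressed relative to the mean log2 CPM of the 6 epithelial genes, a measure added after the data had been seen. On this scale *Nkx2-1*, *Foxa1*, *Foxa2*, *Sox2*, *Cebpa*, *Elf5* and *Id2* kept groups that did not overlap (exact permutation p = 0.0179 for each, the smallest that 5 against 3 cultures allow, two-sided and unadjusted). The permutation counts the Ad-GFP and Ad-Cre cultures divided from a sort as separate, so the independent units are fewer than the cultures. On the same scale 77.5% of all genes tested did not overlap, so 7 of 10 does not set the factors apart. *Foxa1* was then higher by 1.28 and *Sox2* by 3.74 on the log2 scale, while *Nkx2-1* was lower by 3.07 (-3.07). *Klf5*, *Elf3* and *Sox9* overlapped between the groups, with differences of 0.15 (exact permutation p = 0.857), 1.00 (p = 0.143, exact) and 0.87 (p = 0.0714, exact). The 6 genes themselves vary between epithelial types, and how much of each difference comes from cell makeup was not tested.

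**Figure D2:**
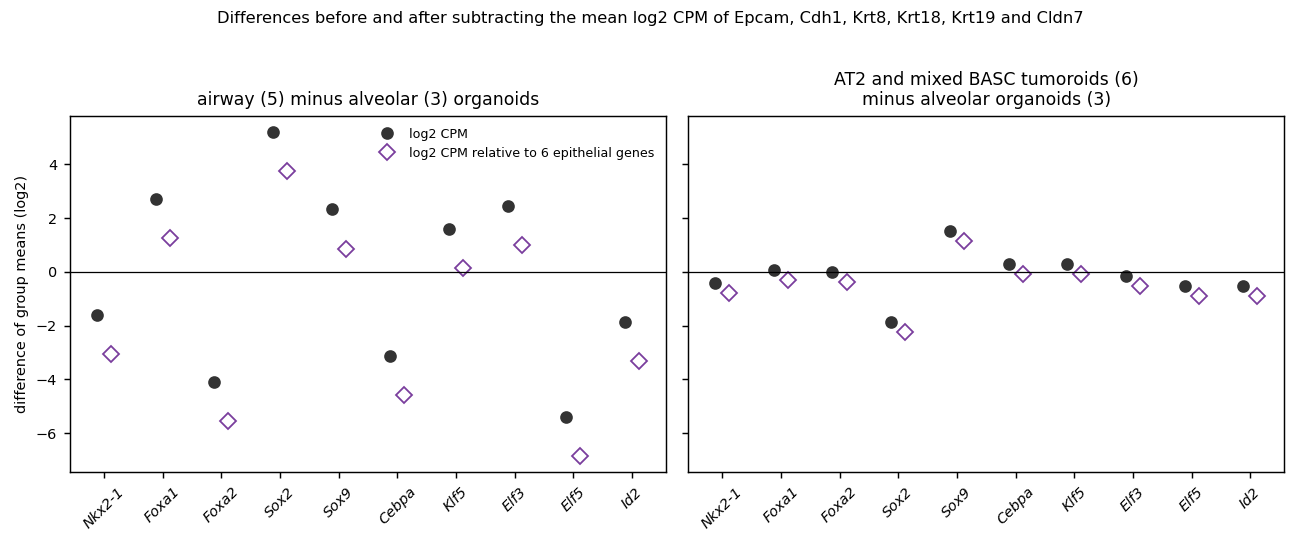
Difference of group means for each factor in log2 CPM (filled circles) and in log2 CPM relative to the mean of 6 epithelial genes (open diamonds), for airway minus alveolar organoids on the left and AT2 and mixed BASC tumoroids minus alveolar organoids on the right. On the left the diamonds lie below the circles, and *Klf5* falls to 0.15 while *Sox2* stays at 3.74.

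Ratios between 2 factors within a culture do not depend on its depth, nor on how much RNA other cells add if they lack both factors. *Foxa1* exceeded *Foxa2* by 36.9 to 98.3 times in tracheal organoids and by 4.21 times in the bronchiolar BASC organoid (ratio of TPM), and was 0.256 to 0.379 of it in the alveolar organoids. *Elf3* to *Elf5* was 231 to 598 in the trachea, 67.1 in bronchiolar BASC and 0.977 to 1.64 in the alveolar cultures. *Sox2* to *Nkx2-1* was 1.22 to 2.24 in airway and 0.00654 to 0.0493 in alveolar organoids. All 3 ratios separated the groups, with the bronchiolar BASC culture on the airway side but nearest to the alveolar one.

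**Figure D3:**
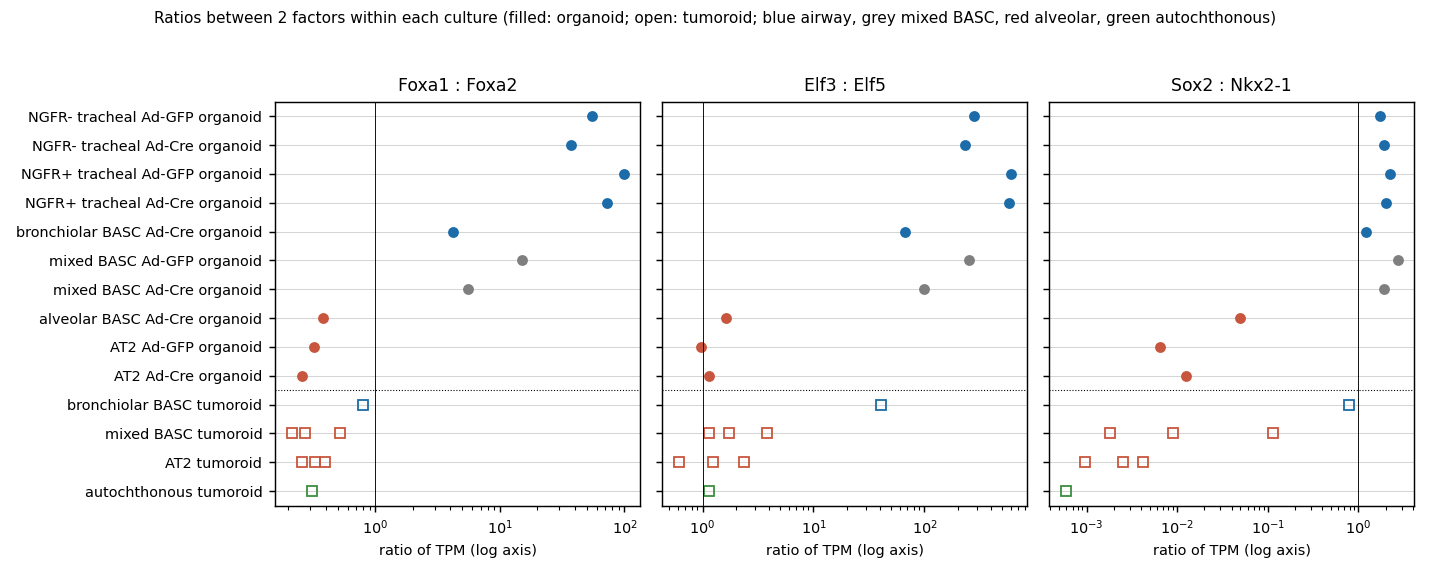
Ratio of TPM of *Foxa1* to *Foxa2*, *Elf3* to *Elf5* and *Sox2* to *Nkx2-1* within each of the 18 cultures (log axes, vertical line at 1; filled circles organoids, open squares tumoroids, blue airway, grey mixed BASC, red alveolar, green autochthonous). The bronchiolar BASC tumoroid (0.794, 40.8 and 0.794) lies on the airway side of every other tumoroid in all 3 panels.

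Genes tied to these factors were taken from lists, whose counts stand against the same 56.4% of all genes called in this comparison. Of 24 alveolar targets 23 were called lower and 0 higher in airway organoids (median log2 fold change -5.19, against 0.07 over all genes), among them *Sftpc* (-9.67), the complement gene *Hc* (-8.66) and *Lgi3* (-8.35). Of 24 airway targets 22 were called higher and 0 lower (median 4.86), led by the secreted airway defence gene *Bpifa1* (6.92), the trefoil factor *Tff2* (6.90) and *Agr2* (6.13), a secretory cell disulfide isomerase. Both lists hold markers of the cells that were sorted. Of 40 related lung epithelial factors, 17 were called higher and 13 lower, with a median of 0.12. The ciliated cell regulators *Gmnc* (6.38), *Myb* (4.97) and *Mcidas* (4.97) rose most, and *Tfcp2l1* (-3.91), *Etv5* (-3.25), an effector of FGF signalling, and *Mycn* (-3.10) fell most.

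Among 34 family members of the factors, 30 could be tested, 9 were called higher and 8 lower, a share close to that of all genes. *Sox15* (4.90), *Sox21* (4.86) and *Sox11* (2.63) were higher in the airway cultures, as *Sox2* was. *Klf2* (-3.92), *Id3* (-3.04) and *Foxa3* (-2.16) were lower, *Klf2* opposite to *Klf5* and *Foxa3* with *Foxa2*. Of 20 partners and cofactors 8 were called higher and 8 lower, with small changes. The nuclear factor I gene *Nfib* (0.68), *Tle3* (0.87) and *Rxra* (1.01) were higher, and *Nfia* (-1.02), *Tle1* (-1.21) and *Tcf4* (-0.61) lower. Of 18 gut and stomach genes that NKX2-1 is known to hold down, 12 could be tested. Of these, 2 were called higher (*Krt20*, 7.35, and *Tff1*, 4.08) and 3 lower (*Gkn2*, -4.17, *Apoa1*, -2.90, and *Hnf4a*, -1.24). *Krt20* had a mean of 50.3 CPM in airway and 0.35 in alveolar organoids. The others were near the floor, with means of at most 1.71 CPM (*Gkn2* in alveolar organoids). *Nkx2-1* itself was lower in the airway organoids.

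The mixed BASC organoids carried the airway pattern. This comparison shares the alveolar organoids with the one above. Of the 10 factors 9 were called, 5 higher (*Foxa1*, *Sox2*, *Sox9*, *Klf5*, *Elf3*) and 4 lower (*Nkx2-1*, *Cebpa*, *Elf5*, *Id2*), against a background of 44.6% of genes. The log2 fold changes of those not discussed below were 2.49 for *Foxa1*, 4.63 for *Sox2*, 2.34 for *Elf3*, -1.96 for *Nkx2-1*, -2.86 for *Cebpa*, -4.67 for *Elf5* and -1.73 for *Id2*. *Sox2* was at 169.6 TPM in the Ad-GFP and 131 in the Ad-Cre culture, and *Nkx2-1* at 62.3 and 68.5 TPM, below every airway organoid. *Foxa2*, at 10.2 and 20.2 TPM, lay between the tracheal and the alveolar cultures and was not called (log2 fold change -2.24 ± 1.12, adjusted p = 0.13). Leaving out the bronchiolar BASC organoid, which only shares in the estimate of the spread, gave it a call (-2.24 ± 0.38, adjusted p = 0.00139). The *Sox9* call (1.99 ± 0.57, adjusted p = 0.0189) was lost without the mixed BASC Ad-Cre culture (1.07, adjusted p = 0.206), and narrowly without the AT2 Ad-GFP (adjusted p = 0.0614) or alveolar BASC culture (adjusted p = 0.0572). The *Klf5* call (1.25 ± 0.31, adjusted p = 0.0107) was lost without the mixed BASC Ad-GFP culture (1.03, adjusted p = 0.0816).

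Set against the airway organoids, which that comparison shares, the mixed BASC organoids had 0 called factors by edgeR, on a background of 0% of genes. One factor, *Nkx2-1* (log2 fold change -0.33 ± 0.13), had an unadjusted p below 0.05, as did 664 genes, and DESeq2 called 0 factors and 29 genes. *Foxa2* (1.08 ± 0.90), *Elf5* (0.59), *Cebpa* (0.27), *Id2* (0.17) and *Sox2* (0.01) had positive values, and *Sox9* (-0.45), *Klf5* (-0.39), *Foxa1* (-0.23) and *Elf3* (-0.19) negative ones. Without the bronchiolar BASC organoid, the remaining 4 airway cultures being tracheal, *Foxa2* was called higher in the mixed BASC cultures (2.51 ± 0.33, adjusted p = 0.0302). *Foxa2* thus ran from 1.86 to 4.33 TPM in tracheal, 10.2 to 26.0 in the 3 bronchiolar or mixed BASC and 57.2 to 72.5 in the alveolar organoids.

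Between the NGFR- and NGFR+ sorts of the trachea 1 of 10 factors was called by edgeR and by DESeq2. *Sox9* was lower in NGFR- cultures (28.1 and 29.8 CPM) than in NGFR+ cultures (45.9 and 46.1 CPM), a log2 fold change of -0.65 ± 0.09 (adjusted p = 0.0388). Both NGFR- cultures lay below both NGFR+ cultures. The Ad-GFP and Ad-Cre cultures of each side were divided from 1 sort, so neither sort was replicated. The p-values of this comparison measure the spread between such divided cultures only. They cannot tell a difference between NGFR- and NGFR+ cells from one between single sorts. The background of adjusted calls was 0.267% of 17234 genes. An unadjusted p below 0.05 was found by edgeR for 7 of the 10 and for 1413 genes. With the virus as a block the adjusted p was 0.0696, and it was 0.0879 and 0.0854 without the NGFR+ Ad-GFP or Ad-Cre culture. *Elf5* had the largest difference by size (0.80 ± 0.28, adjusted p = 0.48), from 56 to 71 reads a culture. *Foxa2* (0.63) and *Cebpa* (0.33) also had positive values, and *Sox2* (-0.29), *Foxa1* (-0.26), *Elf3* (-0.22), *Id2* (-0.20), *Klf5* (-0.07) and *Nkx2-1* (-0.07) negative ones, none of them called.

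Cre was compared with GFP within populations. Each of 4 populations (both tracheal sorts, AT2 and mixed BASC) gave 1 Ad-GFP and 1 Ad-Cre culture from divided aliquots, and the population was a block in the fit. By edgeR 0 of 10 were called, on a background of 0% of 17749 genes. One factor and 419 genes had an unadjusted p below 0.05, and DESeq2 called 0 factors and 4 genes. The factor was *Foxa2* (log2 fold change 0.61 ± 0.21, adjusted p = 0.975), which was higher with Cre in 4 of 4 populations, by 0.32 to 1.04 on the log2 CPM scale. *Nkx2-1* (by 0.03 to 0.51), *Cebpa* (by 0.02 to 0.40) and *Sox9* (by 0.0061 to 1.497) also had the higher value with Cre in 4 of 4. Their log2 fold changes were 0.19 ± 0.09, 0.20 ± 0.12 and 0.55 ± 0.30. How many of all genes were higher with Cre in 4 of 4 was not counted, so this number of factors has no background. The value was higher with Cre in 3 of 4 pairs for *Elf3* (-0.02), in 2 of 4 for *Sox2* (0.20), *Klf5* (-0.01), *Elf5* (0.17) and *Id2* (-0.08), and in 1 of 4 for *Foxa1* (-0.10).

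In the tumoroids, the bronchiolar BASC culture (n = 1) was compared with the 6 AT2 and mixed BASC cultures, grouped here as alveolar. The autochthonous tumoroid shared in the estimate of the spread, and the lone bronchiolar culture was assumed to vary like the others. In simulated data only 3% of genes changed 4-fold were called in this comparison, so a missing call says little. None of the 10 factors was called by edgeR, on a background of 0.891% of 17844 genes, 3 (*Sox2*, *Klf5*, *Elf5*) had an unadjusted p below 0.05, and DESeq2 called 1 (*Elf5*, adjusted p = 0.0187). All 10 fitted log2 fold changes had the sign seen in the organoids, which are other samples on another platform, as did 69.2% of the 17179 genes tested in both. In 6 of the 10 the bronchiolar tumoroid lay outside the CPM range of the 6, against 37.5% of all genes tested. These 6 were *Foxa1*, *Sox2*, *Cebpa*, *Klf5*, *Elf3* and *Elf5*. *Foxa2*, at -0.11 ± 0.82, has no firm sign: its difference of mean log2 CPM was 0.18. Its fitted value turned positive without the first AT2 tumoroid (0.03) or the third mixed BASC tumoroid (0.05). *Nkx2-1*, *Sox9* and *Id2* also had values smaller than their standard errors, so their signs are not firm either.

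*Sox2* was at 115 TPM in the bronchiolar tumoroid, close to the airway organoids. The 3 AT2 tumoroids had 0.48, 1.24 and 0.06 TPM, the last from 1 read, and the mixed BASC tumoroids 0.37, 18.8 and 2.76 TPM. The second mixed BASC tumoroid was the highest of the 6, with 542 reads of *Sox2* and 4304 TPM of summed club markers, against 205 to 2991 in the other 5. The log2 fold change was 4.97 ± 1.69 (adjusted p = 0.295) and 4.72 ± 1.51 without the third AT2 tumoroid (adjusted p = 0.211). *Elf5* was 6.69 TPM in the bronchiolar tumoroid and 10.99 to 131 TPM (median 78.8) in the 6, of which the lowest was the third AT2 tumoroid (log2 fold change -3.68 ± 1.45, adjusted p = 0.377). Without that tumoroid it was -3.91 ± 0.93 (adjusted p = 0.105).

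*Cebpa* had 93.7 TPM in the bronchiolar tumoroid and 125 to 488 (median 399) in the 6. *Klf5* had 161 TPM against 21.8 to 84.7 (median 64.0), *Elf3* 273 against 25.9 to 227 (median 94.4) and *Foxa1* 57.4 against 7.08 to 45.03 (median 26.4). In these 4 the lone tumoroid lay beyond every one of the 6, and none was called. Without the third AT2 tumoroid the fold changes were -2.05 ± 0.47 for *Cebpa* (adjusted p = 0.0982), 1.32 ± 0.31 for *Klf5* (adjusted p = 0.101), 1.20 ± 0.49 for *Elf3* (adjusted p = 0.324) and 0.93 ± 0.47 for *Foxa1* (adjusted p = 0.449), on a background of 264 genes called instead of 159. *Nkx2-1* (145 TPM, against 63.1 to 310.4), *Foxa2* (72.2, against 21.5 to 134), *Sox9* (19.9, against 1.89 to 25.9) and *Id2* (132, against 68.0 to 394) lay within the range of the 6. Their log2 fold changes were -0.46 ± 0.78, -0.11 ± 0.82, 0.63 ± 0.97 and -0.66 ± 0.92. Leaving out the third AT2 tumoroid made these -0.65, -0.31, 0.67 and -0.85, none called. Of the 6 epithelial markers 0 were called here, with a sum of 7612 TPM in the bronchiolar tumoroid, against 991 to 5157 in the 6. Relative to them *Foxa1* differed by -0.03, against 1.44 in log2 CPM itself, and *Sox9* by -0.40, against 1.06. The tumoroid then lay outside the range of the 6 for *Nkx2-1*, *Foxa2*, *Sox2*, *Cebpa*, *Elf5* and *Id2*. On that scale it lay outside for 71.1% of all genes tested. With 1 against 6 the exact permutation test cannot go below 0.143.

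**Figure D4:**
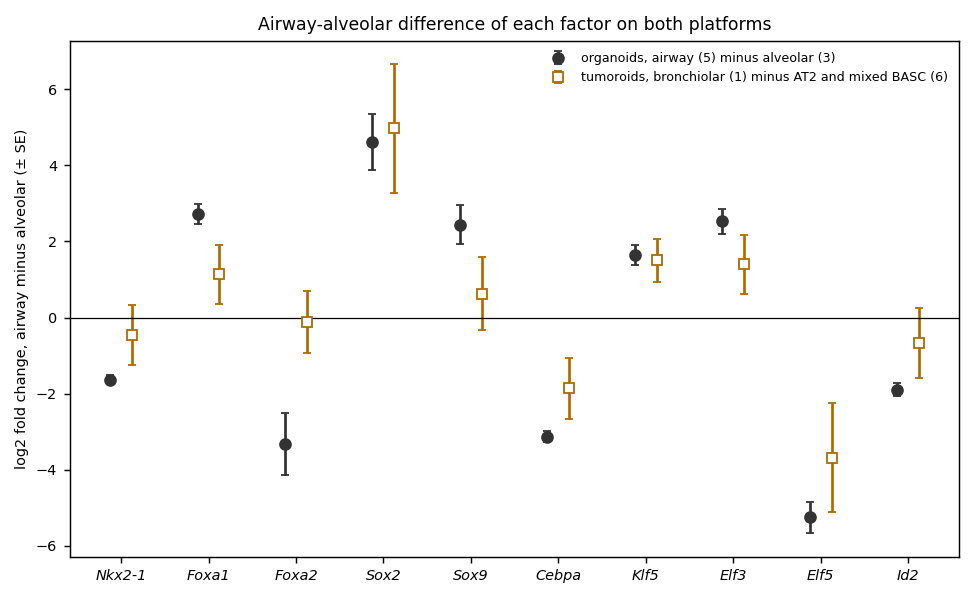
Log2 fold change of each factor, airway minus alveolar, with its standard error from edgeR, in organoids (filled circles, 5 against 3 cultures) and in tumoroids (open squares, 1 bronchiolar against 6 AT2 and mixed BASC cultures). The fitted signs match in all 10. In tumoroids *Nkx2-1*, *Foxa2*, *Sox9* and *Id2* have values smaller than their standard errors and no firm sign. The 2 values of *Foxa2* (-3.33 and -0.11) lie furthest apart.

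Whether the airway-alveolar difference itself differed between tumoroids and organoids was tested in 1 fit over all 18 cultures. This fit called only 6% of genes changed 4-fold in simulated data, so a missing call says little here too. None of the 10 factors was called, on a background of 0.672% of 20104 genes, and DESeq2 called 0. *Foxa2* had the largest term (3.19 ± 1.24). Without the bronchiolar BASC organoid, so that the airway organoids were tracheal alone, it was called (4.61 ± 0.74, adjusted p = 0.00664). With that organoid as the sole airway culture it was 1.40 ± 1.00 (adjusted p = 0.799). The other terms were 1.16 for *Nkx2-1*, -1.61 for *Foxa1*, 0.32 for *Sox2*, -1.83 for *Sox9*, 1.25 for *Cebpa*, -0.16 for *Klf5*, -1.14 for *Elf3*, 1.56 for *Elf5* and 1.23 for *Id2*. Without the third AT2 tumoroid 313 genes and none of the factors were called, and *Foxa2* had 2.98 ± 1.17 (adjusted p = 0.208). The within-tumoroid ratios were 0.794 for *Foxa1* to *Foxa2* in the bronchiolar tumoroid, against 0.212 to 0.52 in the 6, and 40.8 for *Elf3* to *Elf5*, against 0.61 to 3.79. The *Sox2* to *Nkx2-1* ratio was 0.794 against 0.000951 to 0.114. The third AT2 tumoroid lay inside the range of the other 5 for the first 2 of these ratios, at 0.329 and 2.36, and was the lowest for the *Sox2* ratio.

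AT2 tumoroids were next compared with mixed BASC tumoroids (3 against 3). By edgeR 0 of 10 factors were called, on a background of 0% of 15470 genes. None of the factors and 144 genes had an unadjusted p below 0.05, and DESeq2 called 0 factors and 7 genes. The standard errors were 0.51 to 1.59, so that differences well above this size could have gone unseen. In simulated data only 12% of genes changed 4-fold were called in this comparison. The largest term was *Sox2* (log2 fold change -3.42 ± 1.59, lower in AT2 tumoroids), and it was -1.19 ± 1.36 without the second mixed BASC tumoroid. *Elf3* had -0.94 and *Id2* 0.45, and *Nkx2-1*, *Foxa1*, *Foxa2*, *Sox9*, *Cebpa*, *Klf5* and *Elf5* lay between -0.30 and 0.11. Without the third AT2 tumoroid 0 factors were called, with *Sox2* at -2.89 ± 1.58, *Id2* at 0.91 ± 0.42 and *Elf3* at -0.52 ± 0.42. Summing tumoroids that share a label number also called 0 factors. The autochthonous tumoroid, with no replicate, had 0.11 TPM of *Sox2* (3 reads), 475 of *Cebpa*, 250.9 of *Id2*, 186 of *Nkx2-1* and 82.3 of *Elf5*. Its *Foxa1* to *Foxa2* ratio was 0.309. All of these values lay within the range of the 6 AT2 and mixed BASC tumoroids, and for *Sox2* near the lowest of them.

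Transplanted alveolar tumoroids (n = 6) were then set against the alveolar organoids (n = 3), which enter the first comparison as well, while the tumoroids enter the one before. None of the 10 factors was called by edgeR, on a background of 21.7% of 16260 genes, and DESeq2 called 1, *Sox9*. *Sox9* was at 2.63 to 4.91 TPM in the alveolar organoids and at 1.89, 17.9 and 17.1 in the AT2 and 14.0, 6.59 and 25.9 in the mixed BASC tumoroids. Of the 6 tumoroids 5 exceeded every alveolar organoid and the first AT2 tumoroid was the lowest of all. The log2 fold change was 1.99 ± 0.67 (adjusted p = 0.0623), and 2.22 ± 0.45 without that tumoroid (adjusted p = 0.0125). The mixed BASC organoids are not in this comparison. They had 8.08 (Ad-GFP) and 22.3 TPM (Ad-Cre) of *Sox9*, within the range of the mixed BASC tumoroids.

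*Cebpa*, at 125 to 488 TPM (median 399) against 217 to 291, had a log2 fold change of 0.58 ± 0.42 (adjusted p = 0.356). Without the third AT2 tumoroid, *Cebpa* (0.77 ± 0.24, adjusted p = 0.0432) and *Klf5* (0.74 ± 0.23, adjusted p = 0.0415) were called higher. *Nkx2-1*, *Foxa2*, *Elf3*, *Elf5* and *Id2* differed by -0.16 to 0.32 with standard errors of 0.44 to 0.63, *Foxa1* by 0.41 ± 0.52 and *Sox2* by -0.50 ± 1.40. Without the third AT2 tumoroid *Sox9* had 1.95 ± 0.71 (adjusted p = 0.0701), and *Foxa2* 0.53 and *Foxa1* 0.62 were not called. Relative to the 6 epithelial genes, of which 1 was called higher and which summed to 991 to 5157 TPM in the tumoroids against 1642 to 2193, *Nkx2-1* lay lower in the tumoroids (-0.78, exact permutation p = 0.0119), as were *Foxa2* (-0.39, against -0.02 in log2 CPM itself, exact permutation p = 0.0119) and *Id2* (-0.89, exact permutation p = 0.0476). These p-values are two-sided and unadjusted, and 0.0119 is the smallest that 6 against 3 allow. The AT2 Ad-GFP and Ad-Cre organoids, divided from 1 sort, count there as separate. *Nkx2-1* and *Foxa2* had groups that did not overlap, against 9.19% of all genes tested on that scale. The groups of the other factors overlapped there, among them *Cebpa* (-0.07), *Klf5* (-0.06) and *Sox9* (1.17), with all 6 tumoroids included. Fibroblast markers, 2 of 7 called lower, summed to 179 to 4395 TPM against 1940 to 3698, and their part in these values was not tested.

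All 7 transplant tumoroids against the 4 distal Ad-Cre organoids also gave 0 called factors by edgeR and by DESeq2. The background by edgeR was 19.6% of 16139 genes. An unadjusted p below 0.05 was found for 5537 genes and for none of the 10. The tumoroids and the distal organoids each mix airway and alveolar cultures, and *Sox2* ran from 0.06 to 115 TPM in the tumoroids and from 3.24 to 131 in the organoids. Its log2 fold change was -1.497 ± 1.60. *Cebpa* (1.18), *Foxa2* (0.80), *Elf5* (0.76), *Id2* (0.44), *Nkx2-1* (0.31) and *Klf5* (0.29) had positive values, and *Foxa1* (-0.92), *Elf3* (-0.73) and *Sox9* (-0.16) negative ones. When the third AT2 tumoroid was left out, the 10 values ran from -1.28 (*Sox2*) to 1.32 (*Cebpa*), and none was called. Genes outside the 10 were called in these comparisons. All 5 proliferation markers were called higher in both comparisons of tumoroids with organoids. Of 35 related factors tested 4 were called higher in alveolar tumoroids, *Foxm1* (2.11), a cell cycle factor, *Etv4* (1.24) and *Foxp4* (1.08) among them, and 1, *Runx1* (-1.37), lower. Of 20 partners 5 were called higher, led by *Rxra* (1.14), and 0 lower, and of the SOX family *Sox4* (1.46) and *Sox12* (1.19) were called higher and *Sox7* (-2.33) lower. Of 29 family members tested, 2 were called higher and 4 lower. Of the 24 alveolar targets 6 were called lower in the alveolar tumoroids, with *Hc* (-5.75), the lysozyme *Lyz2* (-3.15) and the protease *Napsa* (-3.05) the lowest, and 0 higher, a share close to the 21.7% of all genes. Of 19 airway targets tested 4 were called lower and 0 higher. *Reg3g* (-11.30), *Krt5* (-8.40) and *Scgb3a2* (-7.97) fell most, from means of 70.5, 35.2 and 24.2 CPM in the alveolar organoids to below 1 CPM. The 3 alveolar organoids were uneven for *Krt5*, at 1.25 to 71.0 TPM with a median of 5.03. Of 11 tested gut and stomach genes 3 were called higher, *Tff1* (7.90), *Onecut2* (4.23) and the microvillus gene *Vil1* (2.45). Their means were 4.7, 24.5 and 2.4 CPM in the tumoroids, against 0.014, 1.4 and 0.45 CPM in the organoids.

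Genes with the most similar patterns were sought by Pearson's r of log2 CPM over the 18 cultures, after each platform's mean was subtracted, among 12348 genes. The cultures differ in depth and makeup, and the platform means come from unlike sets (5 airway cultures among 10 organoids, 1 among 8 tumoroids). These values therefore describe the samples only. *Cebpa* and *Elf5* were each other's closest gene (r = 0.987), followed for *Cebpa* by *Spry1* and *Sec14l4* and for *Elf5* by *Sec14l4* and *Atp11a*. *Nkx2-1* was closest to *Foxp2* (0.959), a forkhead repressor of distal lung, and *Foxa2* to the morphogen gene *Shh* (0.974). The desmosome gene *Dsp* was among the 3 closest to both *Foxa1* (0.966) and *Klf5* (0.958). *Sox2* was closest to *Gna15* (0.972), *Elf3* to *Kcne3* (0.966), *Id2* to *Dhcr7* (0.972) and *Sox9* to *Pelp1* (0.908), the lowest of these top values. Between the factors themselves r was 0.93 for *Foxa1* and *Klf5*, 0.92 for *Foxa1* and *Elf3*, 0.93 for *Nkx2-1* and *Id2* and -0.67 for *Sox2* and *Elf5*.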

How the data were processed

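Per the labels, the authors trimmed reads with Trimmomatic 0.39 and quantified them with RSEM 1.3.2 and STAR 2.6.1d on GRCm38. They deposited, per culture and gene, expected counts without normalization between samples, TPM scaled by gene length and library, and FPKM, which was not used. Gene IDs were matched to GENCODE vM21 symbols (46091 of 46603). Expected counts were rounded and tested in R 4.3.3 with edgeR 4.0.16 (filterByExpr, TMM factors, quasi-likelihood test, Benjamini-Hochberg adjustment over all genes tested, threshold 0.05). Every adjusted p comes from edgeR unless DESeq2 is named. A standard error was taken as the fold change over the root of F.

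Alternatives were DESeq2 1.42.0, other size factors, other filters, limma 3.58.1 on log2(TPM + 1), other groupings and leaving out each culture in turn. Log2 CPM used a prior count of 2. The same tests were also run on simulations in which 200 genes changed 4-fold. Of these genes 97.5% were called between airway and alveolar organoids, and 71% between alveolar tumoroids and organoids. For Cre and for the tracheal sorts 100% were called. Only 12% were called for AT2 against mixed BASC tumoroids, 6% for the difference between platforms and 3% for bronchiolar tumoroids. In those last comparisons a factor that was not called may still differ 4-fold. The 10 genes, the lists, which hold genes named by hand, and the tests were chosen with earlier results of these data known. All 10 genes are given in every comparison. List genes named are among the 3 with the largest change in each direction of those called, and the lists are given for the first comparison and for alveolar tumoroids against organoids. The 3 genes most like each factor were sought among genes with a mean CPM of at least 5 on either platform. The human transgene was not analysed here. Counts cover counting error only, and tumoroid totals were lower than those of the organoids, so low genes are less certain there.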

Additional observations from a re-analysis of the deposited data

Results flagged for a closer look

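The 10 factors were screened for a culture lying far from the rest in 4 groups of 4 to 7 cultures, 40 tests in all, by the gap to the nearest value over the whole range of log2 CPM. For independent groups of like cultures chance would flag about 1 in 20, and 5 were found. These groups share cultures and mix populations, so the 5 cannot be set against that rate. In the airway organoids the bronchiolar BASC culture was far below the tracheal cultures for *Klf5* (gap 0.886 of the range; 74.2 against 150 to 164 CPM) and *Elf3* (0.801; 297 against 662 to 808 CPM). It is the one distal culture of the 5. In the tumoroids the third AT2 culture was far below the rest for *Foxa2*, by 0.646 of the range both among the 6 AT2 and mixed BASC tumoroids and with the bronchiolar one added (21.4 against 73.6 to 145 CPM), and for *Nkx2-1* among these 7 (0.577; 74.4 against 210.3 to 450.2 CPM). This is the culture with the highest fibroblast and lowest epithelial marker sums of its group, and their part in its low values was not tested.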

How the results depend on the processing

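Between airway and alveolar organoids all 10 factors stayed called in 19 of 20 refits, and 9 with the Ad-Cre cultures alone, where 5252 genes were called instead of 10920. Of 210 values of single factors in these and the epithelium-relative setting, none changed sign. Leaving out each culture in turn gave 10 factors throughout and 8758 to 12011 genes, 8 to 10 factors and 4882 (without the mixed BASC Ad-GFP culture) to 10087 genes for mixed BASC against alveolar organoids (9 and 8627), and 0 or 1 factor and 0 to 95 genes (without the bronchiolar BASC culture) for mixed BASC against airway organoids. It gave 0 factors and 52 to 264 genes for bronchiolar against alveolar tumoroids (159), 0 factors and 1973 (without the bronchiolar BASC organoid) to 3716 genes for transplant tumoroids against distal organoids (3167), and 0 to 2 factors and 1451 to 4484 genes for alveolar tumoroids against alveolar organoids (3535). For AT2 against mixed BASC tumoroids and for Cre against GFP it gave 0 factors and 0 genes, for NGFR- against NGFR+ cultures 0 or 1 factor and 52 to 410 genes (46), and for the difference between platforms 0 or 1 factor and 25 (without the AT2 Ad-Cre organoid) to 653 genes (without the bronchiolar BASC organoid; 135).

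DESeq2 called 1 factor and 861 genes for bronchiolar tumoroids, 1 factor for alveolar tumoroids against organoids, 29 genes for mixed BASC against airway organoids, 7 for AT2 against mixed BASC tumoroids, 4 for Cre, 219 for NGFR- against NGFR+ and 1100 for the difference between platforms. On log2(TPM + 1) limma called 2, 328, 9 and 439 genes for mixed BASC against airway organoids, bronchiolar tumoroids, NGFR- against NGFR+ (0 factors there) and the difference between platforms. At least 10 counts in every sample left 47 genes for bronchiolar tumoroids, and no filter gave 650 for NGFR- against NGFR+ and 85 for the difference between platforms. AT2 cultures alone gave 0 genes for bronchiolar tumoroids and 0 for alveolar tumoroids against organoids, where the Ad-Cre organoids alone gave 1538. The virus as a block gave 0 factors for NGFR- against NGFR+, and the bronchiolar BASC culture as the sole airway organoid 5 genes for the difference between platforms. The causes were not tested.

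*Foxa2* between alveolar tumoroids and organoids went from a fitted 0.32, with a difference of mean log2 CPM of -0.02, to -0.39 relative to the epithelial genes. Signs of factors not called are not firm: 20 of 179 such values changed sign in that comparison, 23 of 139 between AT2 and mixed BASC tumoroids and 21 of 170 for Cre. On log2(TPM + 1) the median of all genes moved by 0.14 between airway and alveolar organoids. Replicate numbers in the labels pair no cultures across groups. The viruses do, and the population was a block for Cre, while the virus as a block ended the *Sox9* call between the tracheal sorts. The number 648, shared by the bronchiolar and 2 mixed BASC tumoroids, is 1 number and too few for a block.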
